A study of Mus musculus with 4 samples.

Results

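The mRNA levels of 10 genes of bone morphogenetic protein (BMP) signalling were described in single cells of mouse bone and bone marrow: the ligands Bmp2, Bmp3, Bmp4, Bmp5, Bmp6 and Gdf10 and the secreted antagonists Grem1, Nog, Chrdl1 and Fst. They were taken by gene symbol from the 32285 genes of the matrices of both libraries, and all 10 were found. Cells came from femurs and tibias, and the study's methods name untreated INK-ATTAC mice for its single-cell sequencing. In this line a fragment of the p16 promoter drives an inducible, FLAG-tagged caspase 8. Those methods give an old age only, so the line of the young mouse was taken to be the same. There was 1 young library of 6 months and 1 old library of 24 months, so age, animal and library cannot be told apart and no difference between ages was tested. Neither the sample titles nor the study's methods give the number of mice in a library, and each library is called 1 mouse here. Another single-cell sample of the study was a pool of mice. Lineage-positive blood cells had been removed from the digests of bone and marrow with magnetic beads, and the live cells without CD45 were sorted, so shares of cells describe the sort and not the tissue. CITE-seq gave, for each cell barcode, counts of unique molecular identifiers (UMIs) for every gene and for a CD24 antibody.

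After barcodes with under 200 genes or over 20% mitochondrial UMIs were left out, 10063 young and 5607 old cells remained, with 81076421 and 66702846 RNA UMIs and medians of 6385 and 9711 UMIs per cell. The libraries shared 19 cell barcodes. Cells were put in groups by their UMIs of marker lists that hold none of the 10 genes, which placed 7572 young (75.2%) and 3949 old cells (70.4%) in 7 mesenchymal groups. These were stromal-like cells (2955 young and 1798 old), whose genes with the highest ratio over the mean of the other groups were Adipoq, Esm1 and Hp; osteoblast-like cells (963 and 525), with Car3, Ifitm5 and Bglap2; fibroblast-like cells (2815 and 1244), tendon-like cells (254 and 164), fibrochondrocyte-like cells (434 and 132), chondrocyte-like cells (88 and 20), and pericyte or smooth muscle-like cells (63 and 66). Of the leading genes named, Adipoq, Hp and Bglap2 are themselves markers that set the groups. Every marker of a list was detected in its own group. The chondrocyte-like group also held markers of other groups: all 7 chondrocyte markers summed to 15945 CPM (UMIs per 1000000 RNA UMIs) in the young and 15070 CPM in the old mouse, 6 of 7 osteoblast markers, with Dmp1 at 0, to 11564 and 23356 CPM, and all 5 fibrochondrocyte markers to 9575 and 13051 CPM, so that osteoblast markers exceeded its own in the old mouse. All 6 stromal markers summed to 1728 CPM in young chondrocyte-like cells. In the old mouse 4 of them, with Adipoq and Il7 at 0, summed to 146 CPM. Other groups held such markers too. Summed osteoblast markers were 7751 (young) and 5293 CPM (old) in stromal-like cells, beside 37817 and 33274 CPM of their own. In fibrochondrocyte-like cells they were 4806 and 2361 CPM, the latter with Dmp1 at 0, beside 33788 and 27565 CPM. Tendon-like cells held 3089 and 2616 CPM of fibroblast and 3110 and 1603 CPM of fibrochondrocyte markers, beside 8451 and 7252 CPM of their own. Their part in the levels was not tested. Cells close to the limit of assignment made up 12.6% (young) and 11.6% (old) of the tendon-like group and at most 7.58% of any other, and 1566 young and 867 old cells stayed unassigned.

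BMPs are secreted dimers of the TGF-beta superfamily. They bind pairs of type I and type II serine-threonine kinase receptors, which phosphorylate SMAD proteins that enter the nucleus with SMAD4 and switch on targets such as the Id genes. BMPs were named for their ability to induce bone at ectopic sites, and the secreted antagonists bind the ligands and keep them from the receptors, so a cell can be a source of both.

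Promoter sequence from RefSeq (assembly GRCm38.p6) was given for 5 of the 10 genes: Bmp4, Bmp5, Bmp6, Gdf10 and Grem1. The 250 bases before the annotated start are printed for the 4 of these genes that were higher in stromal-like cells than in the other groups, to show what these promoters do and do not share. Each is written 5′ to 3′ in the direction of the gene. Capitals mark matches, on either strand, to the GC box with the letters GGGCGG, to a GC element bound by SMAD proteins with the letters GGCGCC, to the E box with the letters CACGTG, to the CCAAT box or to a TATA box with the letters TATAAA. Bmp4 lies at chr14:46390670-46390919 on the minus strand, Bmp5 at chr9:75775115-75775364 on the plus strand, Bmp6 at chr13:38345466-38345715 on the plus strand, and Grem1 at chr2:113758649-113758898 on the minus strand.
Bmp4: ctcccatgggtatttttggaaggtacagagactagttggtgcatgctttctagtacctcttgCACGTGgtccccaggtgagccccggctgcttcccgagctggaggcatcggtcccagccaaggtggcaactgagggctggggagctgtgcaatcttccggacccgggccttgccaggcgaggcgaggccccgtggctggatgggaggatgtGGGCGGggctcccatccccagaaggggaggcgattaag
Bmp5: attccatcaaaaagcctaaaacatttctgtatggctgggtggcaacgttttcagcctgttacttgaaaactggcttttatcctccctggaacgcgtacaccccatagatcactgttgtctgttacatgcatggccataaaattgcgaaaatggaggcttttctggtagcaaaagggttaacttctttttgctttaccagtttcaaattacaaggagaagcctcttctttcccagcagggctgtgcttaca
Bmp6: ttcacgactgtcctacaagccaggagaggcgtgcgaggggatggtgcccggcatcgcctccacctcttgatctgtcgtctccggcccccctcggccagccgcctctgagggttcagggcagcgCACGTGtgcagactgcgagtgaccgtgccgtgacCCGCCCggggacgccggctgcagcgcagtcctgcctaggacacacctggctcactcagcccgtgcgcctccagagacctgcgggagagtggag
Grem1: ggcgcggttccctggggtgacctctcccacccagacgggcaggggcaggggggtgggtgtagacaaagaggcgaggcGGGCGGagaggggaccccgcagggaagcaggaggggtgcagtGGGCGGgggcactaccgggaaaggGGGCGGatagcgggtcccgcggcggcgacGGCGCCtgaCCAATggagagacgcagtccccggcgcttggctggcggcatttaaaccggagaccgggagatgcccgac
Bases G and C made up 63.2% of the Bmp4 window, 68.8% for Bmp6, 72.0% for Grem1 and 42.8% for Bmp5, against a median of 52.4% over 32851 promoters. GGGCGG was found 3 times for Grem1 and 1 time each for Bmp4 and Bmp6, and 32.7% of all promoters hold it. CACGTG, held by 6.02% of all promoters, was found 1 time in Bmp4 and 1 time in Bmp6. Grem1 held 1 match to the GC element of SMAD proteins (9.59% of promoters) and 1 to the CCAAT box (33.8%), and none of the 4 windows held the TATA box letters (12.4%). The Bmp5 window held no match to any of these letters. The Gdf10 window, not printed, held 78.8% G and C and 4 matches to GGGCGG.

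Levels are given as UMIs of the gene per 1000000 RNA UMIs of the group (CPM), with exact Poisson intervals at 95% in the plot of levels by group. UMIs come from transcript 3′ ends, so CPM values are compared between groups for 1 gene and never between genes. Each group was tested against the plain mean of the other 6 groups on the log2 scale, over 14 sums of raw UMIs (7 groups in each of 2 mice), by the quasi-likelihood test of edgeR, with a term for the mouse and Benjamini-Hochberg adjustment over the 12737 genes tested. Over the 7 tests, the 10 genes gave 70 pairs of gene and group, of which 18 were called higher and 18 lower at an adjusted p under 0.05, beside 14.8% of all pairs of gene and group called higher and 9.42% called lower. Each of the 10 genes was called in at least 1 group, beside 72.9% of all genes tested. Fewer cells of a kind with the gene on and less RNA of the gene per cell cannot be told apart in such sums. Groups near 0 lower a mean of log2 levels, so a group called higher can lie below all other mesenchymal cells pooled. The 2 mice are the only replicates, so the spread of a gene was mostly borrowed from other genes. Groups are said to overlap where the ranges of their 2 mice do, without regard to counting error.

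**Figure D1:**
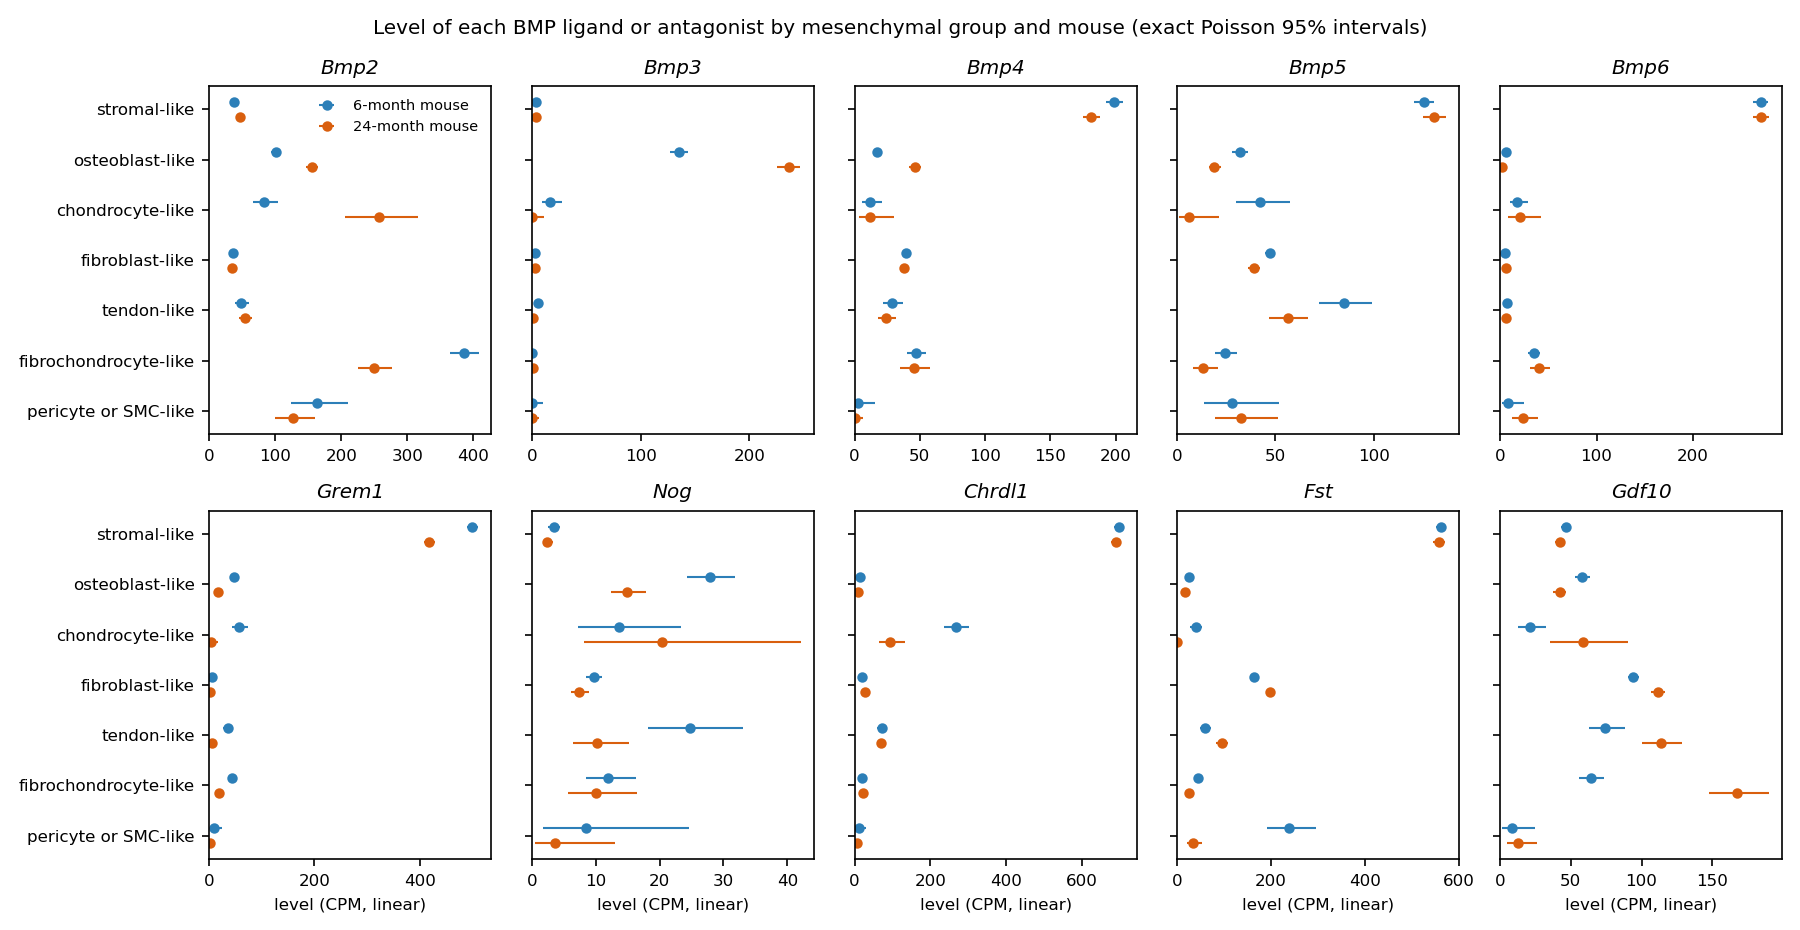
Level of each of the 10 genes (CPM, linear axis, a scale of its own for each gene) in the 7 mesenchymal groups of the 6-month mouse (blue) and the 24-month mouse (orange), with exact Poisson 95% intervals that cover counting error only. Bmp4, Bmp5, Bmp6, Grem1, Chrdl1 and Fst were highest in stromal-like cells, Bmp3 in osteoblast-like cells, and Bmp2 in fibrochondrocyte-like cells of the young mouse at 387 CPM.

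Most of the 10 genes were highest in stromal-like cells: 6 were higher there than in the mean of the other groups (Grem1, Bmp6, Chrdl1, Bmp4, Fst and Bmp5) and 2 were lower (Nog and Bmp2), where 26.2% of all genes tested were called higher and 20.2% lower. The median difference of the 10 genes was 2.41 on the log2 scale, against 0.05 over all genes. Stromal-like cells are the Lepr and Cxcl12 expressing reticular cells that support blood cell formation in marrow.

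Among the antagonists, Grem1, a cystine-knot protein that binds Bmp2 and Bmp4, stood at 500.0 CPM in young and 418 CPM in old stromal-like cells. In the other 6 groups it lay between 1.79 and 56.8 CPM, so its values did not overlap with those of stromal-like cells. Against all other mesenchymal cells of the same mouse pooled, Grem1 was 26.1-fold (24.2 to 28.2) higher in young and 55.3-fold (48.3 to 63.4) higher in old stromal-like cells. The difference from the mean of the groups was 4.88 (SE 0.23, adjusted p = 1e-08 by edgeR's quasi-likelihood test with Benjamini-Hochberg adjustment, n = 2 libraries). Osteoblast-, fibrochondrocyte-, chondrocyte- and tendon-like cells followed at means of 32.3, 31.3, 29.9 and 20.6 CPM, and each of these overlapped with its neighbour in that order. Grem1 was called lower in fibroblast-like cells, with 4.36 and 2.40 CPM, and in pericyte or smooth muscle-like cells, with 8.43 and 1.79 CPM from 3 and 1 UMIs.

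Chrdl1, a chordin-like protein whose cysteine-rich repeats bind BMPs, was 696 CPM in young and 690.1 CPM in old stromal-like cells. It was 25.7-fold (24.1 to 27.4) and 26.1-fold (24.3 to 28.1) above the pooled rest. Chondrocyte-like cells came next, with 267 CPM in the young mouse and 93.4 CPM in the old, where 56.2% of the UMIs lay in 1 of the 20 cells. They were also called higher than the mean of the groups (2.48, SE 0.27, edgeR adjusted p = 4.9e-05), although their level was close to that of all other mesenchymal cells pooled in the young mouse and below it in the old (1.12-fold and 0.36-fold), since that pool holds the stromal-like cells. Summed stromal markers in chondrocyte-like cells were 1728 CPM in the young and 146 CPM in the old mouse. The part of these markers in the Chrdl1 level was not tested. Tendon-like cells followed at 71.8 and 68.9 CPM, and the other 4 groups lay at or under 28.6 CPM.

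Fst encodes follistatin, which binds activins and, less tightly, several BMPs. It was 562 CPM in young and 558 CPM in old stromal-like cells, 4.76-fold (4.59 to 4.93) and 4.41-fold (4.24 to 4.58) above the pooled rest, a difference of 3.08 (SE 0.32, edgeR adjusted p = 9.4e-06) from the mean of the groups. Fibroblast-like cells were next by the mean of both mice, at 163 and 199 CPM, and were called higher too (1.43, SE 0.36, edgeR adjusted p = 0.0099). That call did not pass with DESeq2 (adjusted p = 0.054). Against all other mesenchymal cells pooled, which include the stromal-like cells, fibroblast-like cells were lower, at 0.49-fold in the young and 0.62-fold in the old mouse. The 239 CPM of young pericyte or smooth muscle-like cells rested on 1 cell, which held 62 of the 85 UMIs, and the old mouse gave 34.1 CPM. Old chondrocyte-like cells had 0 Fst UMIs, which allows up to 8.75 CPM.

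Of the ligands, Bmp6, which in the liver induces the iron hormone hepcidin, was 269.8 CPM in young and 269.9 CPM in old stromal-like cells and at most 40.6 CPM in any other group. It was 33.0-fold (29.4 to 37.1) and 37.0-fold (32.2 to 42.6) above the pooled rest, with a difference of 4.37 (SE 0.15, edgeR adjusted p = 1.1e-09) from the mean of the groups. Fibrochondrocyte-like cells were next at 34.8 and 40.6 CPM. They were called higher than the mean of the groups (1.42, SE 0.22, edgeR adjusted p = 0.00078). Against all other mesenchymal cells pooled they were lower, at 0.37-fold in the young and 0.41-fold in the old mouse. Osteoblast-, fibroblast- and tendon-like cells, at 2.37 to 7.01 CPM, were called lower than the mean of the groups.

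Bmp4, a ligand needed for mesoderm formation and limb patterning, was 199 CPM in young and 181 CPM in old stromal-like cells, 5.90-fold (5.53 to 6.29) and 4.72-fold (4.40 to 5.06) above the pooled rest. The difference from the mean of the groups was 3.31 (SE 0.27, edgeR adjusted p = 1.2e-06). Fibrochondrocyte-like cells had 46.9 and 45.3 CPM, the latter from 68 UMIs, and fibroblast-like cells 39.1 and 37.8 CPM. These ranges did not overlap, which leaves counting error out. Fibrochondrocyte-like cells were called higher than the mean of the groups (1.32, SE 0.40, edgeR adjusted p = 0.046), a call that did not pass with DESeq2's size factors (adjusted p = 0.051). Against all other mesenchymal cells pooled they were lower, at 0.53-fold in the young and 0.51-fold in the old mouse. In pericyte or smooth muscle-like cells Bmp4 had 1 UMI in the young mouse (2.81 CPM) and 0 in the old, which allows up to 5.38 CPM.

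Bmp5, whose loss causes the short-ear trait of mice with altered skeletal elements, was less restricted. It was 126 CPM in young and 131 CPM in old stromal-like cells, 2.87-fold (2.70 to 3.06) and 3.98-fold (3.68 to 4.30) above the pooled rest, a difference of 1.74 (SE 0.16, edgeR adjusted p = 3.7e-06) from the mean of the groups. Tendon-like cells followed with 84.7 and 56.1 CPM and were called higher as well (0.89, SE 0.20, edgeR adjusted p = 0.012), but not where groups were set by the share of markers detected (adjusted p = 0.11). Against all other mesenchymal cells pooled, tendon-like cells were 1.23-fold in the young and 0.83-fold in the old mouse. Fibroblast-like cells held 47.1 and 38.9 CPM, and the remaining 4 groups 5.84 to 42.1 CPM.

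In osteoblast-like cells 2 of the 10 genes were called higher, Bmp3 and Nog, and 4 lower (Bmp6, Chrdl1, Fst and Bmp5), where 13.7% of all genes were called higher and 9.91% lower. Bmp3, an atypical ligand made by osteoblasts and osteocytes that opposes the bone-forming action of other BMPs, was 135 CPM in young and 236 CPM in old osteoblast-like cells. No other group exceeded 16.8 CPM, and pericyte or smooth muscle-like cells had 0 UMIs in both mice, which allows up to 8.43 CPM in the young and 5.38 CPM in the old. Bmp3 was 40.5-fold (34.3 to 48.1) and 77.5-fold (64.0 to 94.6) above all other mesenchymal cells pooled. The fitted difference of 7.20 (SE 0.31, edgeR adjusted p = 7.9e-08) is no bound, as sums without a UMI enter the mean of the other groups. Bmp3 was among the 10 genes with the highest ratio in osteoblast-like cells over the mean of the other groups. Bglap, Bglap2 and Dmp1, genes of mineralizing osteoblasts and osteocytes, were there too, but they are markers that set the group. The rest of these genes, Car3, Ifitm5, Bglap3, Col22a1, Ptprz1 and Fat3, are not markers of it.

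Nog encodes noggin, an antagonist of Bmp2, Bmp4 and related ligands that is needed for joint formation. It had the lowest counts of the 10 genes, with 607 young and 328 old mesenchymal UMIs. It was 27.9 and 15.0 CPM in osteoblast-like cells, 24.8 and 10.2 CPM in tendon-like cells and 13.7 and 20.4 CPM in chondrocyte-like cells, and these 3 groups overlapped. Osteoblast-like cells were higher than the mean of the groups by 1.36 (SE 0.19, edgeR adjusted p = 0.00026) and stromal-like cells lower, at 3.39 and 2.40 CPM (-2.25, SE 0.28, edgeR adjusted p = 3.4e-05). With each cell thinned to 2000 UMIs the difference in stromal-like cells was -1.48 and did not pass (edgeR adjusted p = 1.0). Tendon-like cells were called higher (0.91, SE 0.25, edgeR adjusted p = 0.034), a call lost without the mouse block (adjusted p = 0.13) and in thinned cells (adjusted p = 0.53).

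The other 2 ligands were highest outside stromal- and osteoblast-like cells. Bmp2, a strong inducer of cartilage and bone, was 387 CPM in young and 250.4 CPM in old fibrochondrocyte-like cells, 8.09-fold (7.56 to 8.66) and 3.84-fold (3.44 to 4.28) above the pooled rest. The difference from the mean of the groups was 2.23 (SE 0.24, edgeR adjusted p = 4.8e-05). Chondrocyte-like cells had 83.1 CPM in the young mouse and 257 CPM in the old, where 1 cell held 65.9% of the UMIs, so that both groups overlapped. Summed osteoblast and fibrochondrocyte markers were also higher in the old chondrocyte-like cells, as given above, and their part in this level was not tested. Pericyte or smooth muscle-like cells (163 and 127 CPM) and osteoblast-like cells (101 and 155 CPM) also overlapped and were not called. Bmp2 was called lower in stromal-like (37.1 and 47.0 CPM), fibroblast-like (35.7 and 33.9 CPM) and tendon-like cells (48.6 and 54.4 CPM).

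Gdf10, also called Bmp3b and close to Bmp3 in sequence, was the only 1 of the 10 genes whose UMIs lay mostly in fibroblast-like cells. It was 94.3 and 112 CPM there, 64.3 and 168 CPM in fibrochondrocyte-like cells and 74.5 and 114 CPM in tendon-like cells, and these 3 groups overlapped. All 3 were called higher than the mean of the groups, fibroblast-like cells by 1.18 (SE 0.25, edgeR adjusted p = 0.0036), fibrochondrocyte-like cells by 1.43 (SE 0.28, edgeR adjusted p = 0.0035) and tendon-like cells by 0.99 (SE 0.29, edgeR adjusted p = 0.038). Against all other mesenchymal cells pooled, fibroblast-like cells were 1.83-fold in the young and 2.06-fold in the old mouse. Fibrochondrocyte-like cells were 0.92-fold and 2.32-fold, and tendon-like cells 1.07-fold and 1.55-fold. The call in tendon-like cells did not pass with DESeq2 (adjusted p = 0.053) or without the mouse block (adjusted p = 0.055). Pericyte or smooth muscle-like cells, at 8.43 and 12.6 CPM, were called lower.

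By group, 4 of the 10 genes were called higher in fibrochondrocyte-like cells (Bmp2, Gdf10, Bmp6 and Bmp4; 11.4% of all genes), 3 in tendon-like cells (Gdf10, Nog and Bmp5; 10.7%), 2 in fibroblast-like cells (Fst and Gdf10; 18.2%), 1 in chondrocyte-like cells (Chrdl1; 9.52%) and 0 in pericyte or smooth muscle-like cells (14.0%), where 4 were called lower (Bmp4, Chrdl1, Grem1 and Gdf10; 11.3% of all genes). In fibroblast-like cells 4 were called lower (10.0% of all genes), in tendon-like cells 2 (3.11%), in fibrochondrocyte-like cells 2 (4.08%) and in chondrocyte-like cells 0 (7.31%). Although called higher, Bmp6 and Bmp4 in fibrochondrocyte-like cells and Fst in fibroblast-like cells lay below all other mesenchymal cells pooled in both mice. The low call of Grem1 in pericyte or smooth muscle-like cells was lost without the mouse block (adjusted p = 0.16). Of the low calls, those of Chrdl1 in osteoblast-, fibroblast- and fibrochondrocyte-like cells were lost when the UMIs of the highest cell of each sum were left out (adjusted p = 0.074, 0.39 and 0.32). With either mouse left out, which leaves a value with no test, all 36 called differences kept their direction. Of the 72 values this gave, 32 moved by more than the standard error of the difference, and 15, for 12 of the 36 differences, by over 1.5-fold. Without the young mouse, Grem1, Fst, Bmp4 and Bmp5 in stromal-like cells differed by 6.01, 5.17, 4.13 and 2.34, Bmp3, Bmp6 and Fst in osteoblast-like cells by 9.21, -3.22 and -0.35, Chrdl1 in chondrocyte-like cells by 1.5, Fst and Grem1 in fibroblast-like cells by 3.66 and -2.43, and Bmp4 in fibrochondrocyte-like and pericyte or smooth muscle-like cells by 2.19 and -11.07. Without the old mouse, Grem1 in stromal-like cells differed by 4.23, Bmp6 in osteoblast-like cells by -1.66 and Bmp4 in pericyte or smooth muscle-like cells by -3.66. These sizes are no bound where sums with few or no UMIs enter the comparison. Old chondrocyte-like cells had 0 Fst, 0 Bmp3 and 1 Grem1 UMIs. Old pericyte or smooth muscle-like cells had 0 Bmp4 UMIs. Against the pooled rest, Fst in stromal-like cells was 4.76-fold higher in the young and 4.41-fold in the old mouse.

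Summed over cells, stromal-like cells, 39.0% of young and 45.5% of old mesenchymal cells, held 93.9% and 95.1% of the Bmp6 UMIs, 92.4% and 96.7% of Grem1, 92.3% and 93.2% of Chrdl1, 73.2% and 71.3% of Bmp4, 68.8% and 69.9% of Fst and 57.2% and 67.7% of Bmp5. Osteoblast-like cells, 12.7% and 13.3% of the cells, held 86.5% and 94.4% of the Bmp3 UMIs. Fibroblast-like cells, 37.2% and 31.5% of the cells, held 58.1% and 54.9% of Gdf10. Bmp2 had no main source by this count, since fibrochondrocyte-like cells, few in number, held 33.5% of its young and 11.8% of its old UMIs, and osteoblast-like cells 20.3% and 39.0%. Nog was spread over fibroblast-like (38.6% and 37.8%) and osteoblast-like cells (34.9% and 36.6%).

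**Figure D2:**
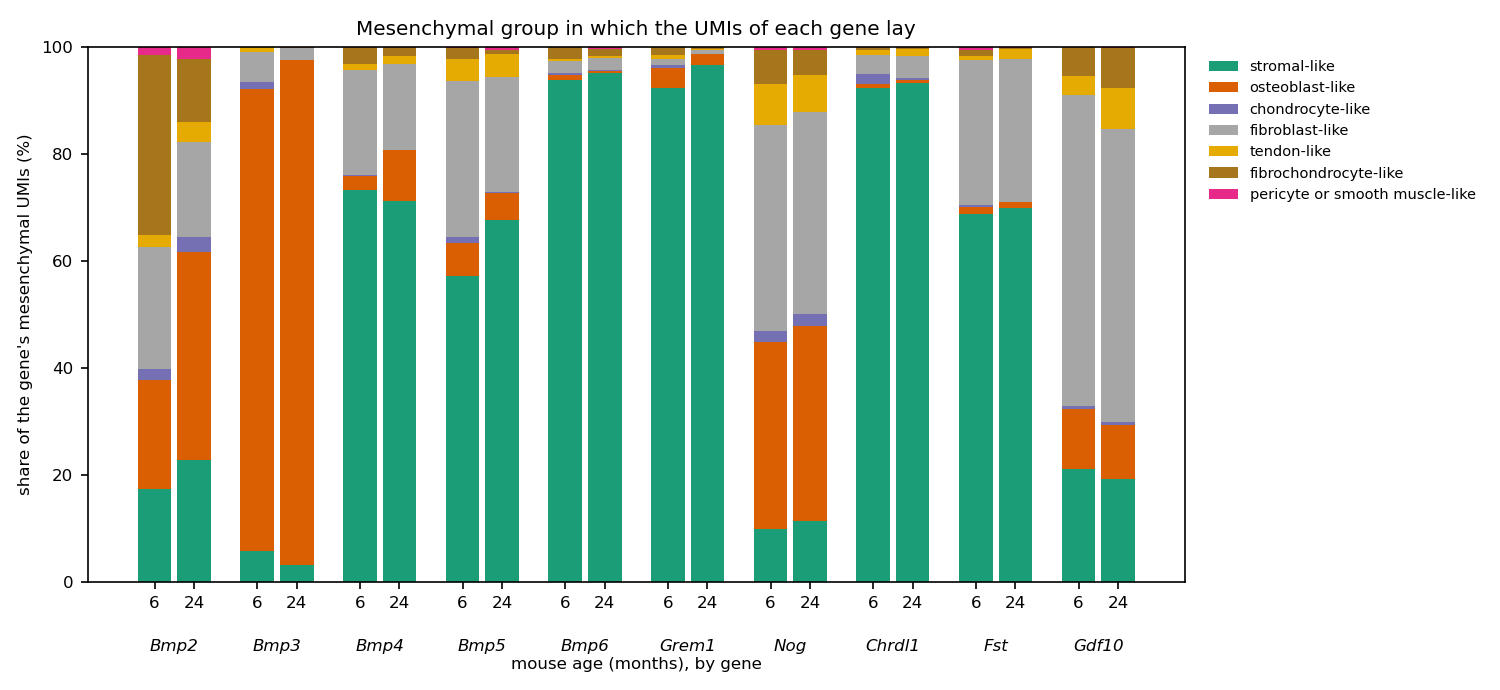
Share of each gene's mesenchymal UMIs (%, vertical axis) that lay in each of the 7 groups (colours), for the 6-month and the 24-month mouse. Stromal-like cells held over 90% of the Bmp6, Grem1 and Chrdl1 UMIs in both mice and osteoblast-like cells 86.5% and 94.4% of the Bmp3 UMIs.

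Most stromal-like cells had a UMI of an antagonist. Chrdl1 was detected in 86.8% of young and 87.5% of old stromal-like cells, Fst in 76.6% and 82.4%, and Grem1 in 73.6% and 70.9%. Of the ligands, Bmp6 was detected in 68.1% and 74.9%, Bmp5 in 46.1% and 58.3% and Bmp4 in 45.2% and 49.5%. Median depths were 5276 and 8445 UMIs per cell. In erythroid-like cells, which should lack these genes and were deeper (10881 and 14096 UMIs), the shares for the 10 genes were 0% to 7.07%. Thinned to 2000 UMIs, which 2711 young and 1666 old stromal-like cells were deep enough for, Chrdl1 was in 69.3% and 67.5% of stromal-like cells, Grem1 in 52.3% and 43.8%, Bmp6 in 41.3% and 39.4% and Bmp4 in 26.3% and 23.7%. The unthinned Bmp3 shares of 25.6% and 47.0% of osteoblast-like cells became 17.8% and 23.5%. Neutrophil-like cells, shallow at 2866 and 3621 UMIs, carried more of some stromal genes, with 172 and 102 CPM of Chrdl1 and 83.3 and 38.2 CPM of Fst.

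Ligand and antagonist UMIs occurred in the same stromal-like cells. At least 1 of the 6 ligands and at least 1 of the 4 antagonists were found in 86.5% of young and 89.1% of old stromal-like cells, and in 64.8% and 63.4% after thinning. In thinned osteoblast-like cells the share was 6.69% and 6.71%, with a ligand in 45.1% and 45.4% and an antagonist in 17.7% and 11.8%. Within thinned stromal-like cells of the young mouse, Fst was detected in 65.2% of cells with a Bmp4 UMI and 55.3% of cells without, and in 66.6% and 54.1% in the old mouse. For Chrdl1 the shares were 73.9% with Bmp4 and 67.6% without in the young mouse, and 76.5% and 64.8% in the old. Grem1 differed less, at 53.8% and 51.7% in the young mouse and 48.4% and 42.3% in the old. With and without a Bmp5 UMI, Chrdl1 was in 69.7% and 69.1% of young and 67.3% and 67.6% of old cells. Cells of 1 mouse are not replicates, so these shares are a description.

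Of 59 other genes of BMP signalling, 48 had enough counts to be tested, and they gave 82 higher and 57 lower calls in 336 pairs of gene and group, with 47 of the 48 called in at least 1 group. Over all genes tested, 14.8% of pairs were called higher and 9.42% lower, and 72.9% of genes were called in at least 1 group. In stromal-like cells, where 26.2% of all genes were called higher and 20.2% lower, 7 of 12 receptors and coreceptors were higher (Acvr1, Acvr1b, Acvr2a, Acvr2b, Acvrl1, Bmpr2 and Eng) and 3 lower (Bambi, Bmpr1a and Bmpr1b). BMP target genes there were higher for 2 of 9 (Hey1 and Id4) and lower for 6 of 9 (Id1, Id2, Id3, Msx1, Msx2 and Atoh8). Id2, which encodes an inhibitor of basic helix-loop-helix factors, was 83.6 and 28.5 CPM in stromal-like cells against 514 and 410.2 CPM in tendon-like cells. Id3, of the same family, was 860.2 and 629 CPM in stromal-like cells and 2059 and 1665 CPM in pericyte or smooth muscle-like cells, where Id1, Id3, Id4, Msx1 and Hey1 were called higher (5 of 9, beside 14.0% of all genes). Over the 9 targets the median difference was -1.02 in stromal-like cells and 1.21 in pericyte or smooth muscle-like cells, against 0.05 and -0.13 over all genes.

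Of the other antagonists, Nbl1, a DAN family protein related to Grem1, was 50.3 and 23.6 CPM in stromal-like cells (-3.72, SE 0.31, edgeR adjusted p = 1.3e-06) and 800.4 and 711 CPM in fibroblast-like cells, where it was called higher. Fstl1, a follistatin-like glycoprotein, was 934 and 1058 CPM in stromal-like and 1387 and 1503 CPM in fibroblast-like cells, and was called higher in both. Htra1, a secreted protease that can bind BMPs, was highest in fibrochondrocyte-like cells at 779 and 1275 CPM. Over the 11 tested genes of this kind, 2 were called higher and 5 lower in stromal-like cells, beside 26.2% and 20.2% of all genes, and 6 higher and 0 lower in fibroblast-like cells, beside 18.2% and 10.0%.

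Among the other ligands, Bmp8a was 64.9 and 53.3 CPM in osteoblast-like cells and 38.9 and 61.3 CPM in chondrocyte-like cells, and at most 4.88 CPM elsewhere. Inhba, which encodes the activin A subunit that follistatin binds, was 210.0 and 378 CPM in fibrochondrocyte-like cells and 10.5 and 13.3 CPM in stromal-like cells. Mstn, or myostatin, a restraint on muscle growth, was 97.1 and 53.0 CPM in tendon-like cells and at most 12.8 CPM in any other group. Gdf5, a ligand of developing joints, was 14.6 and 10.7 CPM in fibrochondrocyte-like cells and at most 3.09 CPM elsewhere. The protease Bmp1, which despite its name is no ligand but cleaves procollagen and chordin, was 188 and 301 CPM in osteoblast-like cells (1.95, SE 0.12, edgeR adjusted p = 3.1e-07). Of the signal carriers, Smad4, the partner of all receptor-activated SMAD proteins, lay between 55.8 and 124 CPM in all groups.

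Genes whose log2(CPM + 1) followed that of each gene most closely were named by Pearson's r over the same 14 sums, among 13520 genes. These values describe 14 sums from 2 mice that share depth and markers, and no p is given. Bmp3 was followed by 1700003F12Rik (r = 0.94), Ctnnb1 (0.93) and Tdrp (0.93). Ctnnb1, which encodes beta-catenin, was 551 and 480.2 CPM in osteoblast-like cells. Bmp6 was followed by Foxc1 (0.93), a transcription factor of marrow reticular cells, by Gm7694 (0.91) and by Dnaja1 (0.90). Bmp4 was followed by Hmox1 (0.94), Epdr1 (0.94) and Fuca2 (0.93), Bmp5 by Spopl (0.95), Arhgap5 (0.94) and Gsta4 (0.93), and Bmp2 by Mef2a (0.90), Kcnq5 (0.88) and Cox4i2 (0.86). Among antagonists, Fst was followed by Clec2d (0.96), Gsta4 (0.96) and Gbp2 (0.95), Grem1 by Imp3, Zfp868 and Fgd6 (0.91 each), Chrdl1 by Tulp3, Cdk8 and Lrpap1 (0.91 each), and Nog by Kctd16 (0.90), Rida (0.89) and Sybu (0.87). Gdf10 was followed by Ltbp3 (0.95), Inhbb (0.95), which encodes another activin subunit, and Lrp1 (0.94). Among the 10 genes themselves, the highest r was 0.84 between Bmp5 and Fst, followed by 0.70 for Grem1 and Chrdl1 and 0.70 for Bmp6 and Chrdl1, and the lowest was -0.79 between Bmp2 and Bmp5.

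The study compared skeletal cells with and without CD24, a surface glycoprotein read here by the antibody. Mesenchymal cells over a threshold of 318 (young) and 404 (old) antibody UMIs were called CD24+, which gave 590 young and 194 old CD24+ cells. Over 4 sums (2 mice, CD24+ and CD24-) with the mouse as a block, 3 of the 10 genes were called higher in CD24+ cells (Bmp2, Nog and Bmp3) and 7 lower (Fst, Bmp6, Chrdl1, Bmp5, Grem1, Gdf10 and Bmp4), where 8.49% of 15187 genes were called higher and 7.72% lower. Bmp2 was 157 CPM in CD24+ and 55.9 CPM in CD24- cells of the young mouse and 115 and 68.2 CPM in the old (1.21, SE 0.14, edgeR quasi-likelihood adjusted p = 0.00017). Fst was 144 and 274 CPM in the young mouse and 137 and 285 CPM in the old (-0.93, SE 0.08, edgeR adjusted p = 2.4e-05). Grem1 was 116 and 179 CPM in the young mouse and 80.9 and 154 CPM in the old (-0.70, SE 0.09, edgeR adjusted p = 0.00045). Bmp3 was 31.1 and 20.0 CPM in the young mouse and 63.9 and 43.4 CPM in the old (0.66, SE 0.10, edgeR adjusted p = 0.0010). For each of the 10 genes both mice moved the same way over all mesenchymal cells, with intervals for counting error that left out 0. The size of the difference varied between the mice: log2 ratios in the young and old mouse were 1.49 and 0.76 for Bmp2, -0.68 and -1.29 for Bmp6, -0.54 and -1.21 for Bmp5 and -0.71 and -0.23 for Bmp4.

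**Figure D3:**
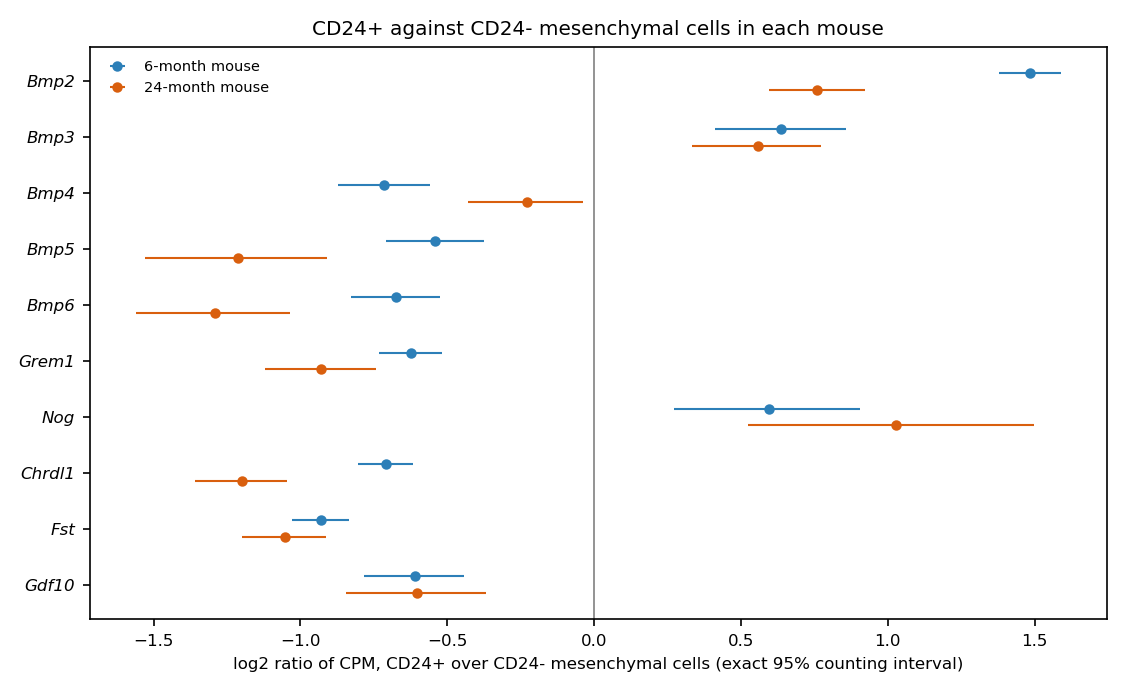
log2 ratio of CPM in CD24+ over CD24- mesenchymal cells (horizontal axis) for each of the 10 genes in the 6-month (blue) and the 24-month mouse (orange), with exact 95% intervals for counting error. Bmp2, Bmp3 and Nog lie above 0 in both mice, with young and old Bmp2 ratios of 1.49 and 0.76, and the other 7 genes lie below 0.

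CD24+ and CD24- cells differed in their groups: osteoblast-like cells were 35.8% of young and 41.2% of old CD24+ cells against 10.8% and 11.9% of CD24- cells, and stromal-like cells were 22.2% and 23.2% against 40.4% and 46.7%. With the group as a further term, in a fit that left out Bmp3, 0 of the 10 genes were called at an edgeR adjusted p under 0.05, and 7 kept their direction (Bmp2 0.18, Gdf10 -0.42) while Grem1 (0.25) and Fst (0.02) reversed. That fit called 27 genes higher and 0 lower among 8570. Within stromal-like cells, Fst was 475 CPM in CD24+ and 569 CPM in CD24- cells of the young mouse and 527 and 559 CPM in the old. Within osteoblast-like cells Bmp3 was lower in CD24+ cells in both mice, at 73.2 against 161 CPM in the young and 141 against 255 CPM in the old, opposite to its direction over all mesenchymal cells. Bmp2 in fibrochondrocyte-like cells was 740 against 265 CPM in the young mouse and 198 against 254 CPM in the old, where CD24+ cells of that group numbered 10. In osteoblast-like cells Bmp2 was 81.8 against 109 CPM in the young mouse and 200.5 against 146 CPM in the old. Of the Bmp2 UMIs of young CD24+ cells, 621 of 1021 lay in fibrochondrocyte-like cells. In the old mouse 265 of 347 lay in osteoblast-like cells. Blood cell markers also differed: all 6 erythroid markers were detected in both, with a summed level of 400 and 460.2 CPM in CD24+ against 141 and 174 CPM in CD24- cells. Summed B lineage markers were 36.6 and 71.5 CPM against 6.38 and 175 CPM, and summed neutrophil markers 393 and 264 CPM, with Ltf at 0 in the old mouse, against 235 and 372 CPM. The part of these markers in the result was not tested. Without the mouse block 1 gene was called higher and 1 lower (Bmp2 and Fst), and in thinned cells 1 higher and 5 lower. Calls over all genes also fell in both settings, by the counts given in the last section.

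Between the mice, 1 of the 10 genes differed over 2-fold in all mesenchymal cells, beside 2.41% of 13521 genes in either direction, whose median log2 ratio of old over young was 0.01 with quartiles of -0.10 and 0.13. This was Bmp3, at 21.3 CPM in the young and 44.8 CPM in the old mouse (1.07, interval 0.97 to 1.18). Its ratio was 0.85 in cells thinned to 2000 UMIs and 0.58 for the plain mean of the group levels, both short of 2-fold. Nog was lower in the old mouse, at 10.9 and 7.33 CPM (-0.57, -0.77 to -0.37), as was Grem1, at 172 and 149 CPM (-0.20, -0.25 to -0.16). The other 7 genes lay between -0.06 (Bmp5) and 0.11 (Gdf10). These intervals cover counting error only and say nothing of how animals of an age vary.

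**Figure D4:**
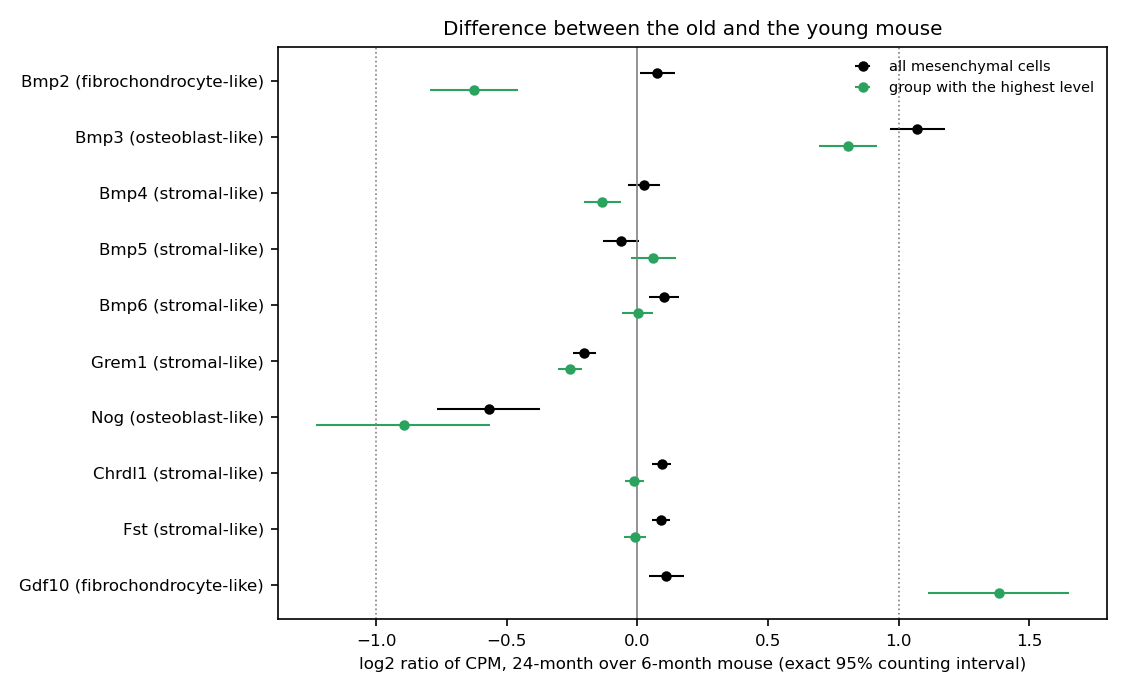
log2 ratio of CPM in the 24-month over the 6-month mouse (horizontal axis) for each of the 10 genes, over all mesenchymal cells (black) and in the group with the highest mean level (green, named on the axis), with exact 95% counting intervals and dotted lines at 2-fold. Bmp3 over all mesenchymal cells (1.07) and Gdf10 in fibrochondrocyte-like cells (1.38) lie past 2-fold, and there was 1 mouse per age.

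Within osteoblast-like cells Bmp3 was 0.80 (0.69 to 0.92) higher and Bmp4 1.46 (1.17 to 1.76) higher in the old mouse on the log2 scale, with Bmp4 at 16.8 and 46.3 CPM, while Nog was -0.90 (-1.23 to -0.57) and Grem1 -1.46 (-1.75 to -1.17). Osteoblast markers differed beside them: Bglap was 6435 CPM in young and 14547 CPM in old osteoblast-like cells, Phex 49.4 and 365 CPM and Dmp1 212 and 191 CPM. Sost, the sclerostin gene of osteocytes, was found in 1 young cell with 1 UMI and in 12 old cells with 144 UMIs. Without the cells that had a Sost UMI, Bmp3 was 135 CPM in the young and 232 CPM in the old mouse. Whether the mix of osteoblast stages had a part in these ratios was not tested.

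Within stromal-like cells the ratio of old over young had an interval that held 0 for 7 of the 10 genes. Bmp6 (0.00, -0.06 to 0.06), Chrdl1 (-0.01, -0.05 to 0.03) and Fst (-0.01, -0.05 to 0.03) had such intervals, as had Bmp5 (0.06, -0.03 to 0.15), Bmp3 (0.09, -0.43 to 0.61), Gdf10 (-0.14, -0.29 to 0.01) and, from few UMIs (60 young and 37 old), Nog (-0.50, -1.13 to 0.12), while Grem1 was -0.26 (-0.30 to -0.21), Bmp4 -0.13 (-0.21 to -0.06) and Bmp2 0.34 (0.19 to 0.50). In fibrochondrocyte-like cells Bmp2 was lower in the old mouse (-0.63, -0.80 to -0.46) and Gdf10 higher (1.38, 1.11 to 1.65), with 19.4% of the old Gdf10 UMIs in 1 cell. Bmp2 in CD24- cells of that group was 265 CPM in the young and 254 CPM in the old mouse. In its CD24+ cells, 77 young and 10 old, Bmp2 was 740 and 198 CPM. Summed osteoblast markers of the group were 4806 CPM in the young and 2361 CPM in the old mouse. The part of these differences in the Bmp2 ratio was not tested. Of the other pathway genes, the targets Id3 (-0.40, -0.42 to -0.38) and Id2 (-0.51, -0.56 to -0.46) were lower in the old mouse over all mesenchymal cells. So was Id1 (-0.88, -0.95 to -0.81), named after its values were seen. Grem1 was lower in the old mouse in all 7 groups, with intervals that held 0 only in pericyte or smooth muscle-like cells, where there were 3 young and 1 old UMIs. Chondrocyte-like cells had 54 young and 1 old Grem1 UMIs, beside summed stromal markers of 1728 and 146 CPM, whose part was not tested.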

How the data were processed

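CITE-seq data of bone and marrow cells from 1 young and 1 old library, each called 1 mouse, were analysed. The authors deposited unnormalized counts, whole UMIs for each gene, antibody and cell. Cell Ranger 6.1.1 wrote them, per the file headers, and per the submitters' processing notes on mm10, with R 4.0.3 and Seurat 4.0 used later. Free RNA in a droplet is counted with the cell. Members and gene lists were chosen with earlier results of these data known.

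Barcodes with under 200 genes or over 20% mitochondrial UMIs were left out. No doublets were removed in the main analysis (Scrublet in scanpy 1.11.5 marked 269 young and 57 old cells). A cell joined the group whose markers had the highest mean scaled level, if this was at least 0.2, led the next by 0.05 and rested on 3 markers with a UMI. These limits were set after the files were seen.

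Raw UMIs summed per mouse and group, or per mouse and CD24 status (Otsu threshold per library), were tested with edgeR 4.0.16 in R 4.3.3 (TMM factors, filterByExpr, quasi-likelihood F test, two-sided, Benjamini-Hochberg, threshold 0.05). The mouse was a block, since all sums of a mouse come from 1 library. The test was first tried on simulated counts. Ratios between ages have exact intervals from the split of UMIs, and a count of 0 allows 3 UMIs. Named genes were the 10 members, the 3 genes most like each, and, of the fixed list, those of highest level per role or largest called change. A gene of the antagonist list is counted with its list but is not reported here.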

Additional observations from a re-analysis of the deposited data

Results flagged for a closer look

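The ratio of old over young had opposite signs in 2 mesenchymal groups for 6 of the 10 genes, with intervals for counting error that left out 0 in both groups. There was 1 mouse per age, so these differences were not tested. The share of all genes that meet this rule was not counted, so the count cannot be read as a trait of these genes. Bmp2 was 1.63 on the log2 scale in chondrocyte-like cells, where 1 old cell held 65.9% of the UMIs, and -0.63 in fibrochondrocyte-like cells. Summed osteoblast markers in chondrocyte-like cells were 11564 CPM in the young and 23356 CPM in the old mouse and summed fibrochondrocyte markers 9575 and 13051 CPM, and their part in the ratios of that group was not tested. Bmp3 was 0.80 in osteoblast-like cells and -2.02 in tendon-like cells, the latter from 10 young and 3 old UMIs. For Bmp4 the ratio was 1.46 among osteoblast-like and -0.13 among stromal-like cells. Chrdl1 was 0.55 in fibroblast-like cells and -1.52 in chondrocyte-like cells. Summed stromal markers in chondrocyte-like cells were 1728 CPM in the young and 146 CPM in the old mouse, and their part was not tested. Fst was 0.67 in tendon-like cells and -2.81 in pericyte or smooth muscle-like cells, where 1 young cell held 72.9% of the UMIs. Gdf10 was 1.47 in chondrocyte-like cells, from 20 UMIs in each mouse, and -0.46 in osteoblast-like cells.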

How the results depend on the processing

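Among the 10 genes, no called group difference changed sign under any alternative. Of 324 values outside the fits that leave out a mouse, 299 kept their side of the threshold and 25 no longer passed. With either mouse left out, 36 of 36 called group differences and 10 of 10 CD24 differences kept their direction (lowest and highest 36 and 36, and 10 and 10), but 32 of 72 group values and 13 of 20 CD24 values moved by more than the standard error, 15 and 0 of them by over 1.5-fold. With no filter on low counts 28 pairs of the 10 genes and groups were called higher (18 with the filter). In thinned cells 8114 pairs over all genes were called higher and 3784 lower, against 13223 and 8401. The CD24 comparison, with 3 higher and 7 lower calls among the 10 genes and 1289 and 1173 over all genes, gave 684 and 492 over all genes with DESeq2, 1 and 1 among the 10 and 246 and 178 over all without the replicate block, 0 and 0 and then 27 and 0 with the group as a further term, and 1 higher among the 10 with 662 and 568 over all in thinned cells. With the group term Grem1 was 0.25 and Fst 0.015. The ratio of old over young was past 2-fold for 0 of the 10 genes in thinned cells (78 genes higher and 69 lower, against 175 and 151) and by the plain mean of group levels (273 lower). Bmp2 became -0.029 in thinned cells and -0.029 without its highest cell, a setting added after seeing the data, and Chrdl1 and Fst became -0.26 and -0.29 by the plain mean. The cause of these changes was not tested. The pairing comes from the library, and without the block the group differences lost 6 of 36 calls. Few cells limit the old chondrocyte-like group (20 cells), and few UMIs limit Nog (607 young and 328 old).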
